A study of Mus musculus with 6 samples.

Results

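Immune checkpoint ligands and galectins are the surface and secreted proteins through which a tumour's cells hold back T cells, natural killer cells and macrophages. The group followed here was named gene by gene and holds 10 genes: the B7 family ligands Cd274, Pdcd1lg2, Cd276 and Vsir, the receptor ligands Cd47 and Pvr, the galectins Lgals1, Lgals3 and Lgals9, and the ectonucleotidase Entpd1. A symbol match in the deposited table found 8 of the 10 among 15836 genes. Pdcd1lg2 and Entpd1 had no row and were not analysed here. Every row of the table sums to at least 10 counts over the libraries.

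RNA was sequenced in bulk from a mouse cell line with the label CAF, which usually stands for cancer-associated fibroblast, and with a pancreatic tumour as its tissue. The 3 control libraries carry the genotype label wt and the treatment label control. The 3 MAOA-KO libraries carry the labels MAOA ko and MAOA knockout, while their description field speaks of a knockdown. The labels name no clone, guide, vector or culture condition, nor whether replicates were separate cultures, so p-values measure only the spread between these libraries.

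In a checkpoint, a ligand on one cell binds an inhibitory receptor on a lymphocyte or macrophage and lowers its response. PD-L1, encoded by Cd274, and PD-L2, encoded by Pdcd1lg2, bind PD-1 on T cells, and interferon-gamma is a known inducer of PD-L1. CD47 binds SIRP-alpha on macrophages and restrains engulfment. Galectins bind galactose-bearing glycans on surface proteins and can cross-link receptors of T cells, and CD39, encoded by Entpd1, starts the breakdown of extracellular ATP towards adenosine.

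The library totals ran from 18631359 to 26645441 counts, and the level of 3 counts lay between 0.11 and 0.156 CPM (counts scaled to a common library size, adjusted with edgeR's TMM scaling factors). Such a floor takes only counting error into account. The row named Maoa had 1124, 1151 and 1221 counts in the controls and 545, 664 and 490 in MAOA-KO, but it lists another gene's locus and so does not check the labels. No gene of the group was among the 4 rows that list a locus other than that of their identifier. Of 11 fibroblast markers 5 were tested, 1 higher and 4 lower in MAOA-KO at an edgeR adjusted p under 0.05. Of all tested genes 73.9% passed that threshold, 37% higher and 36.9% lower. Col1a2, Dcn, Thy1 and Fap were too low to test, and Lum and Postn had no row. Col1a1, Pdgfra and Pdgfrb fell from control means of 1.6, 1.3 and 2.02 CPM by 1.31 ± 0.26, 0.92 ± 0.25 and 1.08 ± 0.21 on the log2 scale (± SE). Col3a1 was the gene that rose, with a control mean of 120 ± 5.09 CPM against 129 ± 2.75 in the knockout libraries (SD, n = 3 each). Its groups overlapped in CPM, and its change was small (log2 fold change 0.09 ± 0.04 SE, edgeR adjusted p = 0.0418). Vim, at 3426 ± 73.8 CPM in the controls and 1789 ± 30.1 in MAOA-KO, fell too and made up most of the summed level of that list, which was 3470 to 3610 CPM in the controls and 1900 to 1960 CPM in MAOA-KO. The part of these marker changes in the values of the 8 genes was not tested. Apart from Vim and Col3a1, the fibroblast markers were low or absent in the controls. The epithelial keratins Krt8, Krt18 and Krt19 had control means of 864, 927 and 351 CPM, though Epcam, Cdh1 and Cldn4 were low. Most of these markers do not bear out the label CAF, and which cells were sequenced was not tested. Of 10 macrophage and leukocyte markers 8 had no row, Ptprc, Csf1r, Itgam and Cd3e among them. The summed level of that list was 52.9 to 58.2 CPM in the controls and 46.5 to 50.6 CPM in MAOA-KO, nearly all from Cd68, which was also lower in MAOA-KO. The 4 endothelial markers summed to at most 0.642 CPM.

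Promoter windows are shown for the gene with the largest rise (Cd274), the gene with the largest fall (Lgals3), and the one gene of the group whose window held an interferon-type motif (Lgals9). The windows run from 250 bases before to 50 bases after the RefSeq start site in GRCm38.p6 and are written 5′ to 3′ along the gene. Capitals mark every match to the searched motifs. The Cd274 window is chr19:29367188-29367487 on the plus strand, that of Lgals3 is chr14:47373610-47373909 on the plus strand, and that of Lgals9 is chr11:78984875-78985174 on the minus strand.
Cd274: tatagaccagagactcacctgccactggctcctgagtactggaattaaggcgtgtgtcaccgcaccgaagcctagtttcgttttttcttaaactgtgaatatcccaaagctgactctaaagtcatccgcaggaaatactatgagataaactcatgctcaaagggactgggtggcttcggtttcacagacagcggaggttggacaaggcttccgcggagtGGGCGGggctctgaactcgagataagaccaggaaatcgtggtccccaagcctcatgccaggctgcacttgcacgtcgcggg
Lgals3: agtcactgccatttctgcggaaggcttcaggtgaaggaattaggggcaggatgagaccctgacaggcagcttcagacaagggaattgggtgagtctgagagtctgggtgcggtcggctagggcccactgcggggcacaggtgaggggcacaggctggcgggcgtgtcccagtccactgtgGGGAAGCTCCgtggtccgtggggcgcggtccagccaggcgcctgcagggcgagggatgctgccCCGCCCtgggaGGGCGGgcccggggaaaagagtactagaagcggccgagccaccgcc
Lgals9: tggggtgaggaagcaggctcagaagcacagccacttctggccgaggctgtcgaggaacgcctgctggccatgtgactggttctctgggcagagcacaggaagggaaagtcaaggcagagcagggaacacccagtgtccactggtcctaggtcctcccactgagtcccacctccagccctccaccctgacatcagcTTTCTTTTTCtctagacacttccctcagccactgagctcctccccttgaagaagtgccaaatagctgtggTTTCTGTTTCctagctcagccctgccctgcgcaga

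RefSeq windows were found for 8 of the 10 genes, 10 windows in all, with none for Lgals1 and Pvr. The motifs were searched on both strands. The core of the interferon-stimulated response element (GAAA and GAAA parted by any 2 bases) was present in the Lgals9 window alone of these 10, in 2 places starting at positions -55 and 15 relative to the start site, and in 3.44% of 32851 mouse windows of this length. The NF-kB consensus was matched in Lgals3, starting at position -70, and in Pdcd1lg2, against 8.46% of all windows. The GC box, GGGCGG, was matched in 6 of the 10 windows, among them a pair for Cd47 that overlap, and in 35.7% of all. It stands at position -31 of Cd274 and at positions -7 and 4 of Lgals3. No window of the group held the STAT site TTCNNNGAA, the AP-1 site TGANTCA, the E-box CACGTG or the TATA box TATAAA, which 8.3%, 7.81%, 7.15% and 13.6% of all windows hold. A match is a string of letters and not a measured site.

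The genes differed widely in level, and only a per-length scale compares genes with each other. On the authors' FPKM scale (fragments per kilobase of transcript, scaled to depth), galectin-1 and galectin-3 stood far above the rest. Lgals1 had 1739, 1698 and 1622 FPKM in the controls and 1256, 1199 and 1158 in MAOA-KO, and its mean over all libraries ranked at place 50 of 15836 genes. Lgals3 followed with 1035, 990 and 959 FPKM in the controls and 711, 689 and 694 in MAOA-KO, at place 99. Cd47, Pvr and Lgals9 formed a middle tier, with control means of 146 ± 3.50, 116 ± 1.19 and 101 ± 2.50 FPKM. Cd276 lay at 27.6 ± 1.12 FPKM. Vsir and Cd274 were at the bottom, at 3.52 ± 0.236 and 3.49 ± 0.135 FPKM, and could not be ordered within their spread. Their values also overlapped in MAOA-KO, at 4.37 ± 0.261 for Vsir and 4.74 ± 0.171 for Cd274. All other neighbours in this order were separated in each group of 3 libraries.

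**Figure D1:**
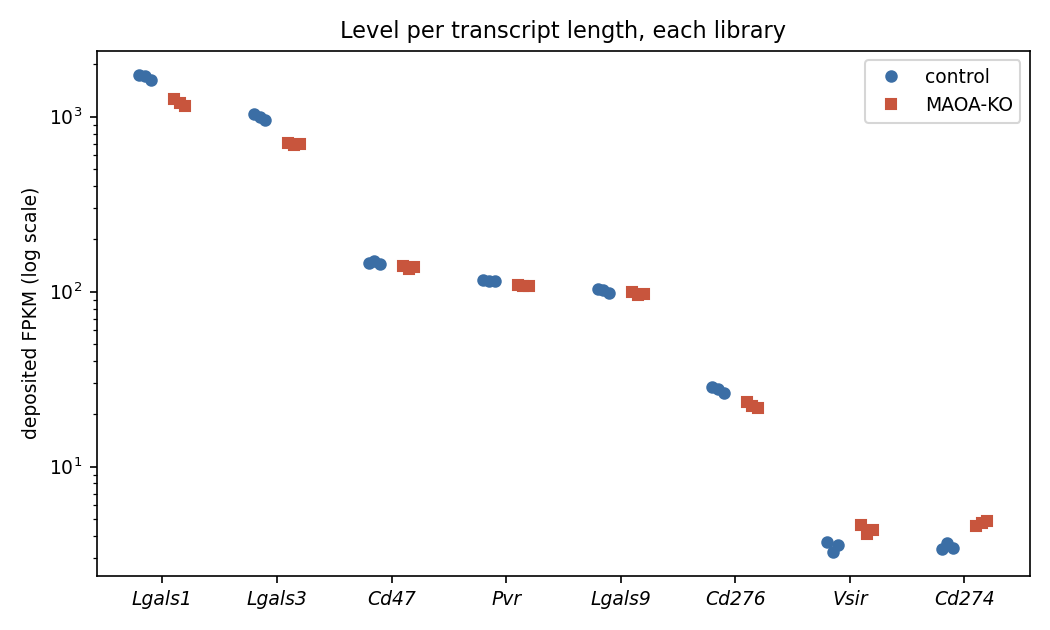
Deposited FPKM of the 8 genes in each of the 6 libraries on a log axis, control as circles and MAOA-KO as squares. Lgals1 and Lgals3 lie between 689 and 1739 FPKM, Vsir and Cd274 between 3.25 and 4.90 FPKM.

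The order of the middle tier depends on the transcript length behind each FPKM value. The deposited values imply 1898 bases for Cd47 and 646 for Lgals3, where the longest annotated transcripts are 2.77 and 2.20 times as long. For the other 6 genes the implied length was within a factor of 1.04 of the longest transcript. With the longest transcript as its length Cd47 would fall below Pvr and Lgals9, whereas Lgals3 would stay next to Lgals1.

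All 8 genes passed the test between MAOA-KO and control, 2 higher and 6 lower, with groups that did not overlap in CPM. Passing was common in this comparison: 73.9% of 13243 tested genes passed in edgeR's quasi-likelihood test at an adjusted p of 0.05, 37% of all tested genes higher and 36.9% lower, and groups did not overlap for 75.1%. In bulk RNA fewer cells that express a gene and less RNA per cell cannot be told apart. The changes of the group were small. The median absolute log2 fold change was 0.29 over the 8 genes and 0.35 over all tested genes, and the medians with sign were -0.18 and 0.00. Exact permutation over 3 libraries against 3 cannot give a two-sided p below 0.1.

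**Figure D2:**
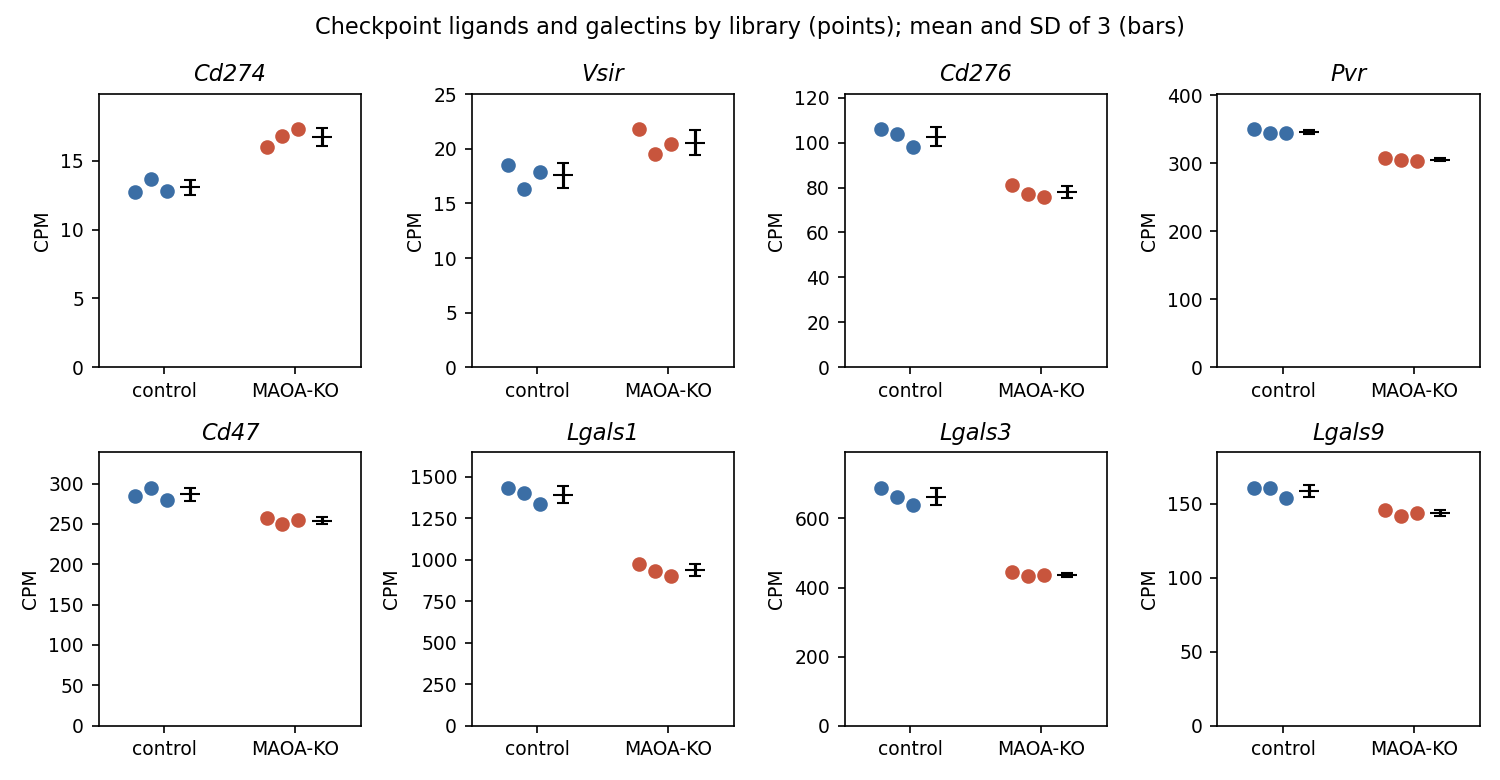
CPM of the 8 genes in each library (points, control left and MAOA-KO right in each panel, axes from 0), with the mean and SD of 3 libraries. Cd274 and Vsir are higher in the 3 MAOA-KO libraries, the other 6 genes lower, and no panel shows overlap.

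Among the B7 family genes the direction was split. Cd274 (ENSMUSG00000016496, chromosome 19, 29367455 to 29388095, plus strand) had 292, 326 and 313 counts in the controls and 349, 460 and 331 in MAOA-KO. Scaled, that is 12.7, 13.7 and 12.8 CPM against 16, 16.8 and 17.3 CPM. All MAOA-KO libraries lay above all controls, and Cd274 rose 1.28-fold (log2 fold change 0.35 ± 0.07 SE, edgeR adjusted p = 7.81e-05). A change of this size or more was common: 49.9% of tested genes had a larger absolute change. Tested against a change of 1.2-fold, a test that 45.9% of tested genes passed, Cd274 did not pass (edgeR adjusted p = 0.0714). An annotated antisense transcript, AC119228.1, covers 14.1% of the Cd274 exon bases and had no row of its own. As the strand setting of the counting is not given, reads of both cannot be told apart.

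Vsir (ENSMUSG00000020101, chromosome 10, 60346851 to 60372684, plus strand) encodes VISTA, a B7-like protein that restrains T cells and is known mainly from myeloid cells. Its levels were 18.5, 16.3 and 17.9 CPM in the controls and 21.8, 19.5 and 20.4 CPM in MAOA-KO. The lowest MAOA-KO library stood just above the highest control. The rise of 1.17-fold (log2 fold change 0.23 ± 0.07, edgeR adjusted p = 0.00458) passed without any 1 library, but its adjusted p reached 0.0492 without control replicate 2, the control with the lowest level.

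Cd276 (ENSMUSG00000035914, chromosome 9, 58524298 to 58555437, minus strand) encodes B7-H3, a checkpoint protein of many solid tumours and their stroma whose receptor is not settled. It went from 106, 104 and 98 CPM in the controls to 81.2, 77.3 and 76 CPM in MAOA-KO. The groups stood well apart, and Cd276 fell 1.31-fold (log2 fold change -0.39 ± 0.04, edgeR adjusted p = 1.06e-08). Cd276 also passed the test against a 1.2-fold change, as did Lgals1 and Lgals3. Gm10657, on the opposite strand, covers 11.4% of the Cd276 exon bases but had at most 8 counts in any library.

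The receptor ligands Pvr and Cd47 were slightly lower. Pvr (ENSMUSG00000040511, chromosome 7, 19903578 to 19921160, minus strand) encodes CD155, the ligand of TIGIT, CD96 and the activating receptor CD226. It had 350, 345 and 344 CPM in the controls and 308, 305 and 303 CPM in MAOA-KO. Its SD was 0.952% of the mean in the controls and 0.772% in MAOA-KO, and a fall of 11.8% passed (log2 fold change -0.18 ± 0.03, edgeR adjusted p = 4.51e-05). Cd47 (ENSMUSG00000055447, chromosome 16, 49800533 to 49915010, plus strand) went from 285, 295 and 280 CPM to 258, 250 and 255 CPM. It fell by 11.3% (log2 fold change -0.17 ± 0.04, edgeR adjusted p = 0.000138). With library totals alone both changes were smaller, with log2 fold changes of -0.09 for Pvr (edgeR adjusted p = 0.0178) and -0.09 for Cd47 (edgeR adjusted p = 0.0356). Neither passed the test against a 1.2-fold change, and 72.4% and 73.6% of tested genes had larger absolute changes than Pvr and Cd47.

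Galectin-1 and galectin-3 showed the largest falls of the group. Lgals3 (ENSMUSG00000050335, chromosome 14, 47367751 to 47386160, plus strand) encodes the chimera-type galectin, which can form oligomers at the cell surface. It had 689, 662 and 638 CPM in the controls and 444, 433 and 435 CPM in MAOA-KO. The 3 MAOA-KO libraries lay close together and far below the controls. Lgals3 was 1.51-fold lower (log2 fold change -0.60 ± 0.04, edgeR adjusted p = 9.32e-14).

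Lgals1 (ENSMUSG00000068220, chromosome 15, 78926725 to 78930465, plus strand) encodes a dimeric galectin that can trigger death of activated T cells. It drew 33029, 33508 and 32602 control counts against 21210, 25566 and 17259 in MAOA-KO, which gives 1433, 1404 and 1336 against 972, 934 and 900 CPM. The groups stood far apart, and Lgals1 was 1.49-fold lower (log2 fold change -0.57 ± 0.04, edgeR adjusted p = 3.61e-13). Of all tested genes 29.7% had a larger absolute change than Lgals3 and 31.3% a larger one than Lgals1.

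Lgals9 (ENSMUSG00000001123, chromosome 11, 78962974 to 78984946, minus strand) encodes a tandem-repeat galectin that binds TIM-3. It moved least, from 161, 161 and 154 CPM in the controls to 146, 142 and 144 CPM in MAOA-KO. The fall of 9.39% (log2 fold change -0.14 ± 0.04, edgeR adjusted p = 0.00173) passed with TMM scaling. With library totals alone, where 74% of all genes passed, it did not (log2 fold change -0.06, edgeR adjusted p = 0.197). On the FPKM scale, which uses totals alone, its values overlapped between groups, with 98.4 to 103 FPKM in the controls and 95.9 to 99.2 in MAOA-KO.

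**Figure D3:**
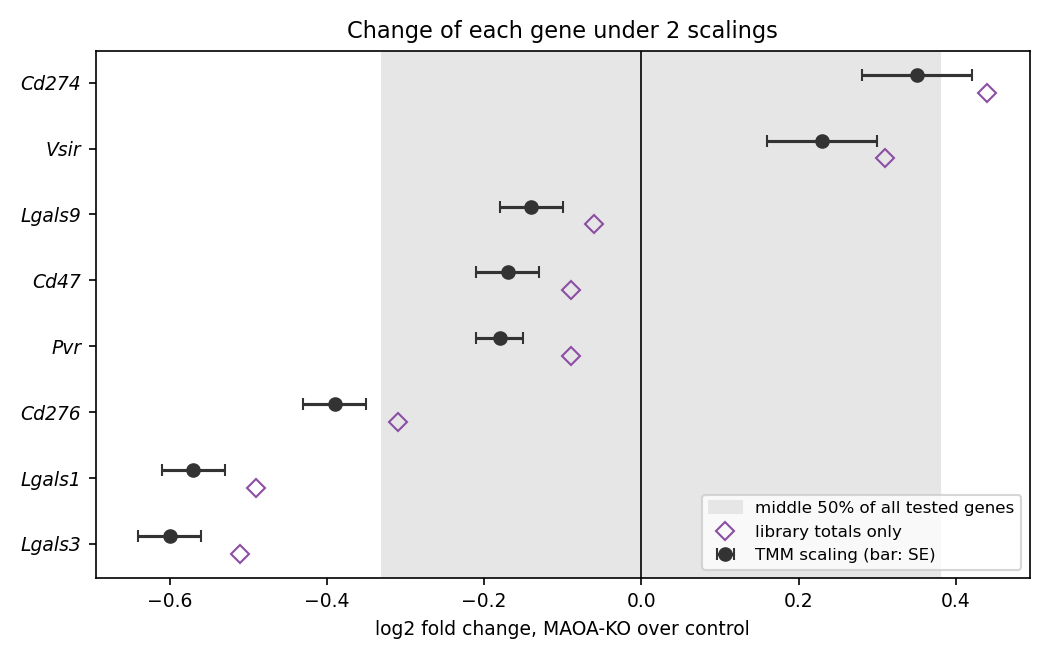
Log2 fold change of MAOA-KO over control for the 8 genes with TMM scaling (filled, bar = SE) and with library totals only (open diamonds), over the middle 50% of all tested genes with TMM scaling (grey, -0.33 to 0.38). The filled points of Lgals1, Lgals3 and Cd276 lie below the grey band, which does not apply to the open diamonds since library totals move the median of all genes from 0.00 to 0.09, and every gene keeps its direction under both scalings.

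Ratios of counts between genes of the group within a library do not depend on any scaling between libraries. They were formed for 7 pairs chosen after the values were seen, so they restate the changes given above on another scale and are given as a description, with no test. The count ratio of Cd274 to Cd276 was 0.119, 0.132 and 0.131 in the controls and 0.197, 0.217 and 0.227 in MAOA-KO, 1.68-fold higher. Cd274 to Pvr was 1.45-fold higher and Vsir to Cd276 1.54-fold higher.

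Among the galectins, Lgals3 to Lgals1 overlapped between the groups, at 0.476 ± 0.0049 in the controls and 0.468 ± 0.0139 in MAOA-KO (n = 3). Lgals9 to Lgals1 was 0.114 ± 0.00134 in the controls and 0.154 ± 0.00499 in MAOA-KO, 1.35-fold higher. On the per-length scale Lgals1 made up 60.4% to 60.8% of the summed FPKM of the 3 galectins in the controls and 59.4% to 60.8% in MAOA-KO, while Lgals9 went from 3.58% to 3.67% up to 4.8% to 4.99%. Cd47 to Pvr and Lgals9 to Cd47 overlapped, with 1.01-fold and 1.02-fold differences.

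**Figure D4:**
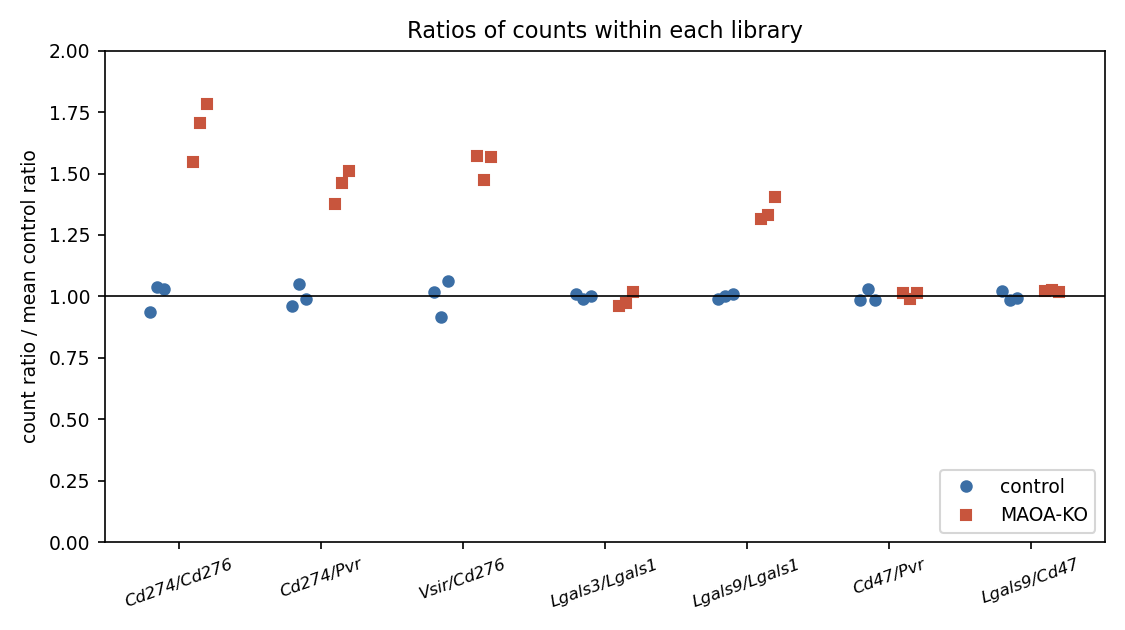
Ratio of deposited counts for 7 gene pairs in each library, divided by the mean control ratio (control circles, MAOA-KO squares, axis from 0). The Cd274/Cd276 ratio is 1.68-fold higher in MAOA-KO, whereas Lgals3/Lgals1, Cd47/Pvr and Lgals9/Cd47 lie near 1.

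The libraries of a group varied little. The coefficient of variation was lowest for Pvr in both groups and highest for Vsir, at 6.5% in the controls and 5.64% in MAOA-KO. Counting error alone gives 4.9% for Vsir and 5.68% for Cd274 in the controls, near the observed 6.5% and 4.09%. For Lgals1 counting error was 0.55% and the observed variation 3.59%.

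By centred log2 CPM over the 6 libraries, the tested genes nearest to Cd274 were Rb1cc1, Ip6k2 and Fam76b, at root mean square distances of 0.0132, 0.0179 and 0.0189. Nearest to Lgals3 were Gstp1, Prmt1 and Ssr2, at 0.00808, 0.012 and 0.0138. Such likeness was common, as 1533 genes lay within 0.1 of Cd274 and 981 within 0.1 of Lgals3.

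The surrounding pathways were followed through 7 gene lists, whose counts stand against 73.9% of all tested genes passing, 37% higher and 36.9% lower. The list of other checkpoint ligands had 21 genes, of which 10 were tested. Of these 6 rose and 2 fell, a number of passing genes near that of all genes, and their median log2 fold change was 0.51, against 0.00 over all genes. Cd80 and Cd86, the ligands of CD28 and CTLA-4, had no row. Nectin1, an adhesion molecule, rose from 4.18 ± 0.371 to 8.71 ± 1.39 CPM (n = 3 per group, log2 fold change 1.04 ± 0.12, edgeR adjusted p = 2.11e-08). Clec2d, the ligand of inhibitory NK receptors of the NKR-P1 family, rose from 16.4 ± 0.462 to 26.9 ± 2.13 CPM. H2-T23, which encodes Qa-1, the ligand of NKG2A, rose from 77.5 ± 2.83 to 95.9 ± 3.43 CPM, and reads may be shared with other class I genes. Nectin2, which like Pvr binds TIGIT, had 45 ± 3.16 and 41.8 ± 2.55 CPM and did not pass (adjusted p = 0.0767, edgeR).

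Of 14 listed receptors of these ligands 10 had no row and were not analysed here, Pdcd1, Ctla4 and Cd96 included. Of the 3 tested, Tigit and Cd28 had larger absolute log2 fold changes than any of the 8 genes above. Tigit, an inhibitory receptor of T and NK cells and the receptor of Pvr, had 302, 302 and 322 counts in the controls and 35, 40 and 38 in MAOA-KO. It fell from 13 ± 0.288 to 1.68 ± 0.268 CPM (log2 fold change -2.97 ± 0.12, edgeR adjusted p = 1.25e-17). Cd28, the costimulatory receptor of T cells, had 30, 39 and 42 counts in the controls and 254, 311 and 206 in MAOA-KO, and rose by 2.85 ± 0.12 on the log2 scale (adjusted p = 5.85e-17). Both changes stood in libraries where Cd3e and Ptprc, which mark T cells and leukocytes, had no row. The part of other cells in these counts was not tested. Havcr2, which encodes TIM-3, fell from 4.15 ± 0.349 to 3.01 ± 0.121 CPM (adjusted p = 0.00205, edgeR).

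Of 9 other galectins and partners 5 were tested; 2 rose and 2 fell. Lgals7, a galectin of stratified epithelia, went from 42.5, 39.2 and 40.2 CPM in the controls to 10.1, 8.33 and 9.59 CPM in MAOA-KO (log2 fold change -2.13 ± 0.07, edgeR adjusted p = 2.19e-19). Lgals1 and Lgals3 had -0.57 and -0.60 on the same scale. The keratins Krt8, Krt18 and Krt19 had control means of 864, 927 and 351 CPM. They were lower too in MAOA-KO, with log2 fold changes of -0.93 ± 0.04, -0.38 ± 0.04 and -2.02 ± 0.04. Cdh1, with a control mean of 2.68 CPM, did not pass (edgeR adjusted p = 0.17), and Epcam and Cldn4 were too low to test. Of the 6 epithelial markers 4 were tested and 3 of them fell, where 73.9% of all tested genes passed and 36.9% fell. The summed level of the epithelial markers was 2090 to 2220 CPM in the controls and 1210 to 1280 CPM in MAOA-KO. The part of an epithelial share in these values was not tested. Lgals8, a tandem-repeat galectin, fell by 0.30 ± 0.04 on the log2 scale from 192 ± 9.04 CPM. It shares 4.2% of its exon bases with Heatr1 on the other strand. The galectin-related gene Lgalsl rose slightly, by 0.20 ± 0.07 (adjusted p = 0.00787), and did not pass without MAOA-KO replicate 2 (log2 fold change 0.12, adjusted p = 0.119). Lgals3bp, a secreted glycoprotein that binds galectin-3, had 380 ± 17.1 and 376 ± 9.9 CPM and did not pass (adjusted p = 0.746).

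Of the enzymes that build the glycans galectins bind, 3 rose and 4 fell of 10 tested, near the share of all genes (73.9%). Mgat5, which starts the N-glycan branch preferred by galectin-3, fell from 71.9 ± 1.98 to 47.9 ± 0.901 CPM (log2 fold change -0.59 ± 0.04, edgeR adjusted p = 8.42e-12). Mgat2, which acts earlier in branching, fell by 0.48 ± 0.04. Mgat4a, which adds another branch, rose by 1.17 ± 0.05, and Mgat3, which adds the bisecting residue, by 0.68 ± 0.05. B4galt1, which adds galactose, had 192 ± 6.09 and 192 ± 7.19 CPM.

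Genes of extracellular nucleotides and adenosine, the pathway in which CD39 acts, had 16 of 22 members tested, 6 higher and 8 lower (median log2 fold change -0.34). Nt5e, which encodes CD73 and makes adenosine from AMP, was low, at 2.61 ± 0.541 and 1.9 ± 0.215 CPM. It fell in MAOA-KO (log2 fold change -0.46 ± 0.18, edgeR adjusted p = 0.0204). The intracellular or secreted Entpd1 relatives Entpd7 and Entpd5 fell by 1.21 ± 0.06 and 0.74 ± 0.05 on the log2 scale (adjusted p = 2.12e-15 and 3.13e-12, edgeR). Cox15 shares 4.95% of the Entpd7 exon bases on the other strand. The nucleoside transporters Slc29a1 and Slc29a2 fell by 0.76 ± 0.05 and 0.62 ± 0.12. Enpp1 rose from 43.2 ± 0.784 to 60.4 ± 1.05 CPM (log2 fold change 0.48 ± 0.04, edgeR adjusted p = 4.4e-10). Entpd2 and Entpd3, also Entpd1 relatives, and the receptor genes Adora1 and Adora2b rose but stayed under 2 CPM on average. The receptor gene P2rx7, under 2 CPM as well, fell by 1.63 ± 0.23. Entpd6, a further relative, fell from 17.5 ± 0.476 to 13.9 ± 0.534 CPM (log2 fold change -0.33 ± 0.07, edgeR adjusted p = 0.000112). Npdc1 shares 28.8% of the Entpd2 exon bases on the same strand.

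Around Cd47, the list of its axis and of phagocytosis had 4 genes higher and 5 lower of 10 tested, and its receptor gene Sirpa was too low to test. Gas6, a bridge between phosphatidylserine and TAM receptors, went from 21.1 ± 1.32 to 90.4 ± 2.09 CPM (log2 fold change 2.10 ± 0.05, edgeR adjusted p = 7.4e-22). Cd24a, a surface glycoprotein whose human counterpart binds Siglec-10 on macrophages, rose from 78.4 ± 3.59 to 178 ± 4.63 CPM (log2 fold change 1.18 ± 0.04, edgeR adjusted p = 1.74e-18). Qpct, a glutaminyl cyclase, rose by 0.95 ± 0.08. Its relative Qpctl, the enzyme that modifies CD47 for SIRP-alpha binding, had 13.2 ± 1.11 and 12.9 ± 0.197 CPM and did not pass (adjusted p = 0.746). Thbs2, a thrombospondin, fell by 0.81 ± 0.13, and its relative Thbs1, which binds CD47, rose by 0.59 ± 0.04. Calr fell by 0.63 ± 0.03, from 2533 ± 96 to 1632 ± 27 CPM, and Mfge8 by 0.53 ± 0.04, from 496 ± 19.9 to 344 ± 8.23 CPM. Lrp1 and Anxa1 fell by 0.22 ± 0.04 and 0.16 ± 0.04.

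Of 25 tested regulators of PD-L1 10 rose, 10 fell and 5 did not pass (median log2 fold change 0.02), near the shares of all genes (37% higher and 36.9% lower). Ifngr2, a chain of the interferon-gamma receptor, rose from 21.5 ± 0.161 to 30.8 ± 1.42 CPM (log2 fold change 0.51 ± 0.06, edgeR adjusted p = 9.99e-09). Irf1, which acts on the Cd274 promoter, rose by 0.24 ± 0.04. Socs3, an inhibitor of JAK signalling, rose by 0.93 ± 0.06. Myc, a transcription factor reported to raise PD-L1 and CD47, fell by 1.28 ± 0.04. Stt3a, which N-glycosylates PD-L1, fell by 0.42 ± 0.03. Cmtm6, which keeps PD-L1 at the cell surface, had 55.1 ± 1.77 and 55.7 ± 2.54 CPM and did not pass (adjusted p = 0.723, edgeR).

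**Figure D5:**
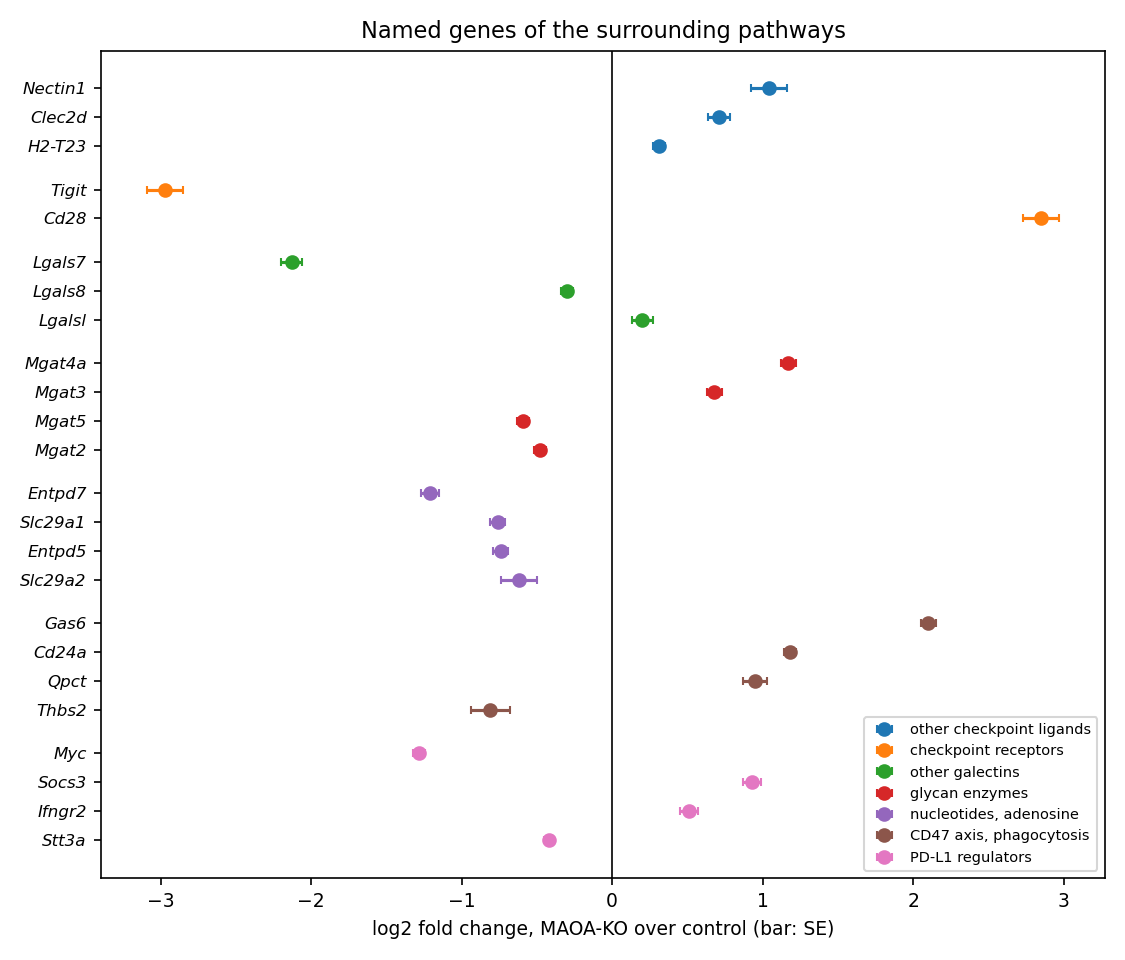
Log2 fold change (bar = SE) of MAOA-KO over control for the genes named by rule in 7 surrounding gene lists, coloured by list. Tigit and Lgals7 have the lowest values (-2.97 and -2.13), Cd28 and Gas6 the highest (2.85 and 2.10).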

How the data were processed

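Read counts per gene in 3 control and 3 MAOA-KO libraries were analysed from 1 deposited table. Per the file headers, the table holds whole-number counts and FPKM per library, beside which the authors deposited their own contrast (log2 fold change, p-value, FDR, and −log10 of both). The deposited log2, p-value and −log10 columns were not used for results. Coordinates are those of GRCm38.p6 per the file headers (mm10 per the submitters' processing notes). For aligner, counter and strand setting, what was used is not given in the sources used here. Library preparation included, by the labels' protocol, small RNA enrichment, whereas 97.8% to 98.3% of counts lay on protein-coding genes. The deposited FPKM follow from the counts and 1 length per gene.

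Counts were filtered with filterByExpr (13243 genes tested, 2593 not), scaled with TMM (factors 0.968 to 1.03) and tested with edgeR 4.0.16 in R 4.3.3 (robust quasi-likelihood fit, group only, Benjamini-Hochberg over all tested genes, threshold 0.05). The SE is the log2 fold change over the square root of F. CPM carry TMM scaling. The script was checked on simulated counts. Loci and lengths (tolerance 0.001) were compared with GENCODE M21. Alternatives were DESeq2 1.42.0, other scalings and filters, a 1.2-fold null, a replicate block and each library left out.

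Members and lists were chosen with earlier results of these data known. Named from each list were up to 4 genes past the threshold with the largest absolute log2 fold change and at least 5 CPM in the higher group. Others (Nectin2, Havcr2, Lgals3bp, B4galt1, Nt5e, Enpp1, Entpd2, Entpd3, Entpd6, Adora1, Adora2b, P2rx7, Qpctl, Thbs1, Calr, Mfge8, Lrp1, Anxa1, Irf1, Cmtm6) were named for their role after their values were seen. A gene of the lists is not reported here by name.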

Additional observations from a re-analysis of the deposited data

How the results depend on the processing

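Tested against a change of 1.2-fold, 6079 genes were called in place of 9781, and of the group 0 rose and 3 fell (Cd276, Lgals1 and Lgals3) in place of 2 and 6; the test requires larger changes by its construction. With library totals only, 5 of the 6 lower genes were called. The exception was Lgals9, and the median of all genes moved from 0.00 to 0.09 on the log2 scale. Of 104 repeats of the 8 genes' values 98 kept direction and side of the threshold, 6 kept direction only and 0 reversed. Of 312 repeats for the 24 rule-named pathway genes these were 308, 4 and 0. The 4 were H2-T23, Lgals8 and Lgalsl tested against a 1.2-fold change, and Lgalsl without MAOA-KO replicate 2. Without 1 library 9357 to 9772 genes were called, with 2 higher and 6 lower genes of the group each time. The log2 fold change then lay between 0.33 and 0.38 for Cd274, 0.17 and 0.27 for Vsir, and -0.63 and -0.57 for Lgals3. With the replicate block 10205 genes were called, and all 8 genes of the group kept their calls. Deviations of same-numbered libraries correlated across genes at only 0.088, 0.0576 and 0.0346, and control replicate 3 correlated best with MAOA-KO replicate 2 (0.0365), so the numbers were not taken as pairs. Genes near the floor of 3 counts, 0.11 to 0.156 CPM, are limited by depth.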
